A study of Homo sapiens with 12 samples.

Results

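The oxidative phosphorylation (OXPHOS) genes examined here are the 103 protein-coding genes whose symbols name a subunit of respiratory complexes I to V, the ATP synthase inhibitor or a close copy of a subunit. They were picked by symbol from the 60504 features of the table, 19664 of them protein coding, and no measured value entered the choice. Of the 103, 90 lie in the nuclear genome and 13 in mitochondrial DNA. Expression was measured by sequencing polyadenylated RNA from 12 libraries of KMS-11, an established human multiple myeloma line in which a translocation drives high expression of NSD2 (older name WHSC1), a histone methyltransferase. All 12 libraries come from the derivative named TKO, labelled WHSC1(+/-) and plasma cell, with no treatment given. The 4 groups of 3 biological replicates differ in the vector: none (TKO), NSD2 (WT), NSD2 p.D1240A (D1240A) or NSD2 p.F1295A (F1295A). No empty-vector line is among them, so the effect of a vector and that of the NSD2 it carries cannot be told apart in comparisons with TKO. The labels do not say whether each line is 1 clone, nor whether the replicates were separate cultures, so p-values measure only the spread between these libraries, which may be technical.

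Oxidative phosphorylation moves electrons from NADH through complex I, or from succinate through complex II, to ubiquinone, complex III, cytochrome c and complex IV, which reduces oxygen. Complexes I, III and IV pump protons across the inner mitochondrial membrane, and complex V, the ATP synthase, uses the gradient to make ATP. Complexes I, III, IV and V are built from subunits of both genomes, while complex II is built from nuclear subunits alone. Plasma cells, which secrete large amounts of immunoglobulin, and myeloma cells derived from them are known to respire actively.

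Values are FPKM (fragments per kilobase of transcript, scaled to the library's mapped fragments) after rescaling between libraries, so levels of different genes are compared per length. Testing required 0.5 FPKM or more in 3 or more libraries, and 14411 genes passed. It was called at a Benjamini-Hochberg adjusted p under 0.05 in limma, and all log2 differences are on the scale log2(FPKM + 0.5). The targeted gene, NSD2, had 59.0 to 63.1 FPKM in the TKO libraries, 189 to 196 with WT, 244 to 261 with D1240A and 160.5 to 173 with F1295A. Every vector library thus exceeded every TKO library. The vector lines also stood apart from each other: every D1240A library exceeded every WT library, and every WT library every F1295A library. Among vector lines, the substitution, the NSD2 level and the line itself therefore cannot be told apart. Of 9 tested plasma cell markers, 5 were called higher and 3 lower in WT than TKO. JCHAIN averaged 1742, 3814, 3167 and 3939 FPKM in TKO, WT, D1240A and F1295A, while SDC1, a defining marker, averaged 4.04, 0.237, 0.280 and 0.252 and CD38 between 0.282 and 0.856. Of the markers of other cell types, none of 4 for B cells and of 3 for monocytes was tested, and COL1A2 and CD22 were listed at 0 in every library. CD3E (T cell), EPCAM (epithelium) and COL1A1 (fibroblast) lay between 0.502 and 1.18, 1.25 and 2.86, and 0.167 and 1.60 FPKM. The part of these shifts in the results was not tested. D1240A replicate 2 stood apart from the other libraries: ribosomal RNA took 52.7% of its summed FPKM, against 1.66% to 2.47% elsewhere. The nuclear OXPHOS genes of that library lay a median of 0.13 log2 units below their mean over all libraries, so the counts and the D1240A differences that results turn on are also given without it. In bulk RNA, fewer cells with a transcript and less transcript per cell cannot be told apart.

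Most of these genes were abundant. Of the 103, 96 were tested, 83 nuclear and all 13 mitochondrial. The 83 nuclear genes had a median of 169 FPKM over the 12 libraries, against 9.32 for all tested genes, and 60 of the 83 (72.3%) averaged at least 100 FPKM, against 7.33% of all tested genes. Without close copies and readthrough genes, the median level was 130 FPKM over 36 nuclear genes of complex I, 112 over 4 of complex II, 195 over 9 of complex III, 332 over 12 of complex IV and 267 over 18 of complex V. The highest nuclear level was that of ATP5F1B, the catalytic beta subunit of ATP synthase, at 1341 FPKM, followed by COX6C of complex IV at 1059 and ATP5MC2, one of 3 genes for the ring subunit c, at 949. Low levels belonged to NDUFV3, a complex I accessory subunit, at 19.7, and UQCRFS1, the Rieske iron-sulfur protein of complex III, at 37.2.

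**Figure D1:**
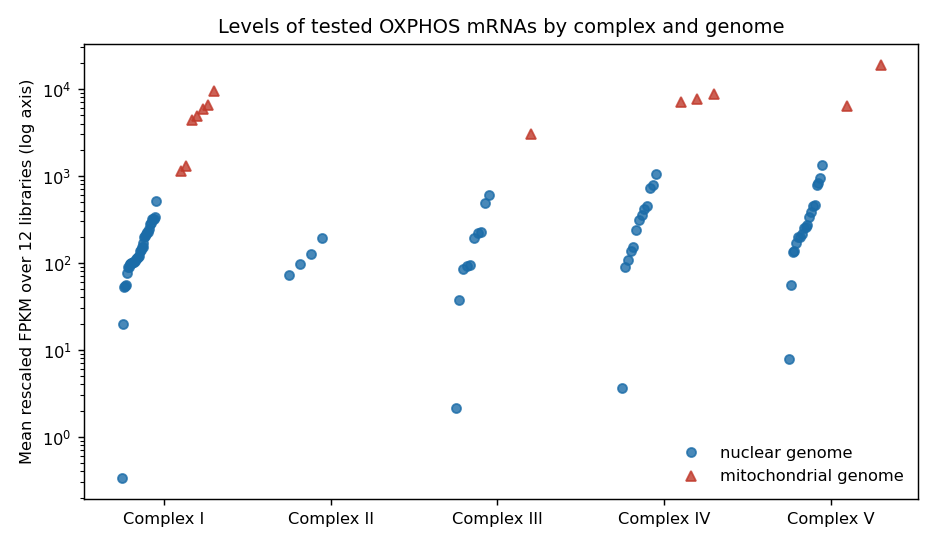
Mean rescaled FPKM over the 12 libraries (log axis) of each tested OXPHOS gene, by complex; circles are nuclear and triangles mitochondrial genes. All 13 mitochondrial genes lie at or above 1142 FPKM, and the nuclear genes of complexes IV and V have the higher nuclear medians, 332 and 267 FPKM.

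The 7 nuclear genes that were not tested are alternative forms. COX4I2, COX6A2 and COX7B2, the lung, muscle and testis forms of complex IV subunits, were listed at 0 in every library. COX6B2, COX7A1 and COX8C, also alternative complex IV forms, and ATP5MGL, a copy of the ATP synthase subunit g gene, had means of 0.122 FPKM or less in every group. UQCRHL, a close copy of the complex III hinge gene UQCRH, averaged 2.16 FPKM against 606 for UQCRH, and reads may be split between them. The readthrough genes ATP5MF-PTCD1 and NDUFC2-KCTD14 share exons with ATP5MF and NDUFC2 and are reported as uncertain. NDUFC2-KCTD14 was at 0 in 7 of 12 libraries and at most 1.44 FPKM in the rest.

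The 13 mitochondrial mRNAs ranged from 1142 FPKM for MT-ND5 to 19021 for MT-ATP8, with a median of 6332, and their sum was about 4 times that of the 90 nuclear genes. The rank within the mitochondrial set needs care where reading frames overlap on 1 RNA. MT-ATP8 and MT-ATP6 share 46 bases and MT-ND4L and MT-ND4 share 7, at chrM:8527-8572 and chrM:10760-10766 of GRCh38. They are shown because fragments from these stretches and their joint RNA can be assigned to either gene. Capitals mark the start codon of the downstream gene.
MT-ATP8 and MT-ATP6: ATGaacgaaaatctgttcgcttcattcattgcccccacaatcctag
MT-ND4L and MT-ND4: ATGctaa
MT-ATP8 is listed at 19021 FPKM and MT-ATP6, on the same RNA, at 6332, and MT-ND4L at 9482 beside MT-ND4 at 4909. MT-ATP8 and MT-ATP6 are 207 and 681 bases long, and MT-ND4L and MT-ND4 297 and 1378. How gene length and RSEM's assignment of shared fragments enter these levels was not tested.

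In WT against TKO, OXPHOS genes moved in both directions by small amounts. Of the 96 tested, 29 were called higher and 21 lower in WT (50 in all, 52.1%), against 49.7% of all tested genes (25.8% higher and 23.8% lower), a share near the background. The 3 WT and 3 TKO libraries did not overlap for 63 of the 96, against 60.3% of all tested genes. The median log2 difference was 0.01, and the median size regardless of sign was 0.16, against 0.23 over all tested genes. Of the members only NDUFA4L2 moved by at least 1 log2 unit, as did 948 of all tested genes. By complex, 13 of 37 nuclear complex I genes rose and 9 fell. In complex II 1 of 4 rose and 1 fell, in complex III 3 of 10 rose and 1 fell, in complex IV 7 of 13 rose and 2 fell, and in complex V 5 of 19 rose and 5 fell. Median differences by complex were 0.03, -0.00, -0.01, 0.13 and 0.03 for complexes I to V.

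NDUFA4L2, an induced paralogue of the complex IV subunit NDUFA4 known as a hypoxia target, changed most. It lies at chr12:57234903-57240715. TKO held 1.00, 0.618 and 0.969 FPKM, WT 4.82, 4.42 and 4.95, D1240A 4.499, 3.67 and 4.24, and F1295A 3.998, 5.11 and 5.17. All 9 vector libraries lay above all 3 TKO libraries, and the 3 vector groups overlapped each other. The log2 differences from TKO were 1.95 (WT), 1.77 (D1240A) and 1.95 (F1295A), each with an SE of 0.130 (limma adjusted p = 2.04e-07, 6.22e-07 and 2.42e-07). At these low levels the added 0.5 FPKM understates the change. NDUFA4 itself rose by 0.24 in WT (SE 0.055; limma adjusted p = 0.00334), from 95.6 ± 2.90 to 113 ± 3.69 FPKM (SD, n = 3).

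**Figure D2:**
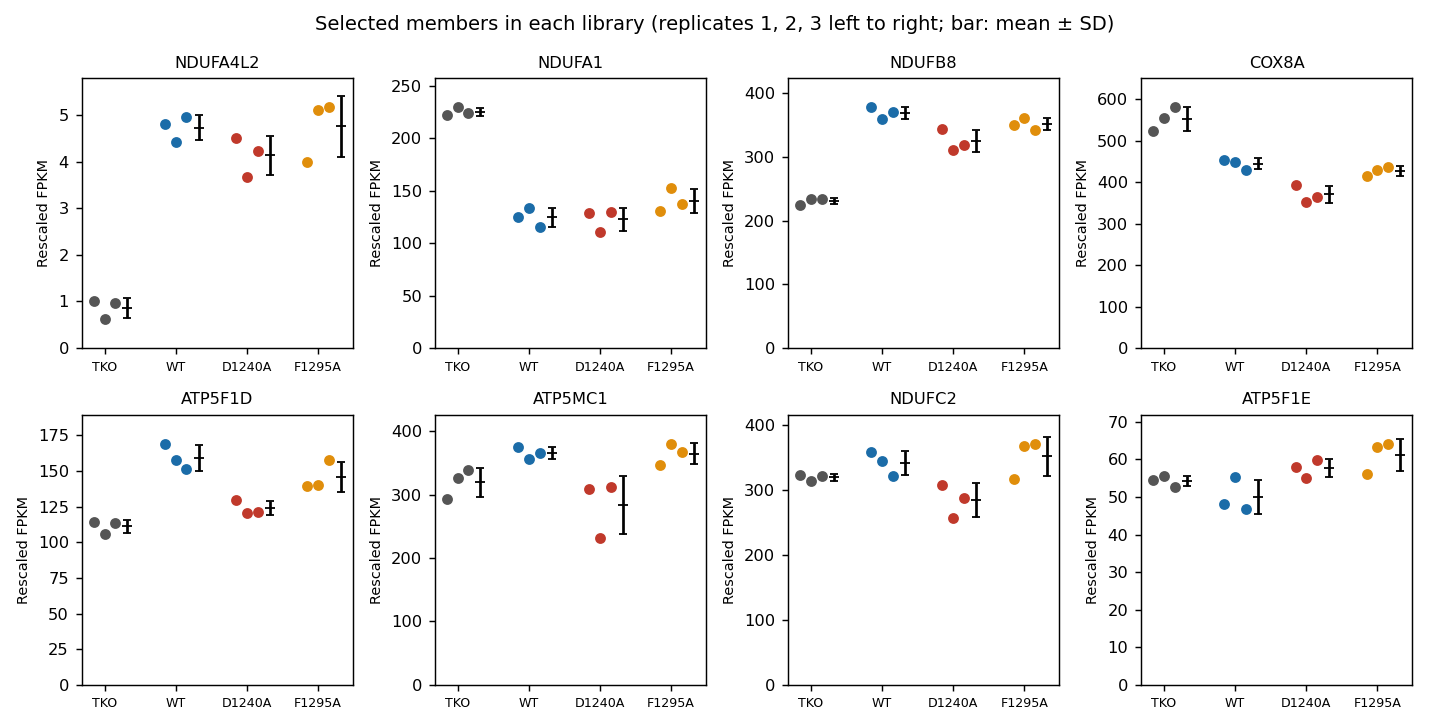
Rescaled FPKM of 8 OXPHOS genes in each library (points, replicates 1 to 3 from left to right) with the mean ± SD of the 3 libraries. NDUFA4L2, NDUFA1 and NDUFB8 separate TKO from all vector lines, and COX8A, ATP5F1D, ATP5MC1 and NDUFC2 are lower in D1240A than in WT.

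Among the complex I subunits, the core of electron transfer did not move as 1 block. Of its nuclear genes, NDUFV2, NDUFS7 and NDUFS8 rose, NDUFS1 and NDUFV1 fell, and NDUFS3 differed by -0.02 without a call. NDUFV2, of the NADH-oxidizing module, went from 422, 444 and 441 FPKM in TKO to 557, 535 and 530 in WT (log2 0.31, SE 0.035, limma adjusted p = 1.77e-05). Its module partners went the other way: NDUFV1, which binds NADH and flavin, from 220.2, 216 and 220.3 to 187, 181 and 187 (log2 -0.24, limma adjusted p = 2.98e-04), and NDUFS1 from 63.8 ± 2.28 to 53.7 ± 1.82 (log2 -0.25, limma adjusted p = 1.74e-04). None of these 3 pairs of groups overlapped. All 3 genes were called in the same direction in D1240A and F1295A against TKO, comparisons that share the TKO libraries.

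The largest changes in complex I were in accessory subunits, which surround the core and take part in assembly and stability. NDUFB8 (chr10:100523740-100530000) rose from 225, 233 and 234 FPKM in TKO to 378, 359 and 370 in WT, a log2 difference of 0.68 (SE 0.039, limma adjusted p = 6.23e-08). NDUFS4, whose loss is a known cause of Leigh syndrome, rose from 77.7, 77.6 and 77.4 to 102, 98.9 and 98.8 (log2 0.37, limma adjusted p = 5.38e-06). In both genes every WT library lay above every TKO library. NDUFA11, NDUFB6 and NDUFA3 rose by 0.30, 0.30 and 0.29.

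NDUFA1 (chrX:119871487-119876662), needed early in complex I membrane arm assembly, fell most: TKO held 222, 230 and 224 FPKM and WT 125, 133 and 115, a log2 difference of -0.85 (SE 0.072, limma adjusted p = 1.49e-06). D1240A held 128, 110 and 129 and F1295A 131, 153 and 137, so that TKO stood alone above the other 9 libraries. NDUFB2 fell from 367 ± 8.01 to 264 ± 9.03 FPKM (log2 -0.47, limma adjusted p = 2.63e-06). NDUFV3, NDUFB1, NDUFA7, NDUFA5 and NDUFA2, all accessory, fell by 0.46, 0.37, 0.35, 0.29 and 0.23 on the log2 scale.

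The start regions of 4 members whose values lead the comparisons are printed here: NDUFA1 and NDUFB8, the largest fall and rise among abundant complex I genes in WT, and NDUFA11 and ATP5MC1, lower in D1240A than in WT. Each run holds 250 bases before to 50 after the annotated start on its gene's strand (RefSeq, GRCh38.p14). They lie at chrX:119871582-119871881 (plus strand), chr10:100529874-100530173 (minus), chr19:5903741-5904040 (minus) and chr17:48892537-48892836 (plus). Capitals mark matches, on either strand, to short words for factors known to act on respiratory genes: GCGCA followed by NGCGC (NRF1), CCGGAAG (ETS factors such as GABPA), AAGATGGC (YY1), GGGCGG (SP1) and ACGTG (hypoxia response element core). ACGTG and the NRF1 word can match both strands at 1 place, as ACGTG does in CACGTG.
NDUFA1: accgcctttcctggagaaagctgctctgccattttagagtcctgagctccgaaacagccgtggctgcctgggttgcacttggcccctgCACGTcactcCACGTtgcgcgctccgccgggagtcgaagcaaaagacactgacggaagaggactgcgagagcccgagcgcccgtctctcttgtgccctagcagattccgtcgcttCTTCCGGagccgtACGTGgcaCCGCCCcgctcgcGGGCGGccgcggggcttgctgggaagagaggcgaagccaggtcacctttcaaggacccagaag
NDUFB8: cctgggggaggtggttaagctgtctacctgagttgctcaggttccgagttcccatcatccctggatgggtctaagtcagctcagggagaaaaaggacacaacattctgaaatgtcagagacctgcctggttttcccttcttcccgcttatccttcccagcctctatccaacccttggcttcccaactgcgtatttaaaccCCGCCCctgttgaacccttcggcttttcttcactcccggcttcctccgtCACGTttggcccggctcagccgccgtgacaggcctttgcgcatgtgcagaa
NDUFA11: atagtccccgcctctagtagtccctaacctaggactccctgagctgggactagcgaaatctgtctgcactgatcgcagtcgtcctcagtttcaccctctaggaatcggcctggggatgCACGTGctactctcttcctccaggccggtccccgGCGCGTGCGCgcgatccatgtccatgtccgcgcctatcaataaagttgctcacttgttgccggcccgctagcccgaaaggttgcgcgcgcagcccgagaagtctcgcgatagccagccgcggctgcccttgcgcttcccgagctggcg
ATP5MC1: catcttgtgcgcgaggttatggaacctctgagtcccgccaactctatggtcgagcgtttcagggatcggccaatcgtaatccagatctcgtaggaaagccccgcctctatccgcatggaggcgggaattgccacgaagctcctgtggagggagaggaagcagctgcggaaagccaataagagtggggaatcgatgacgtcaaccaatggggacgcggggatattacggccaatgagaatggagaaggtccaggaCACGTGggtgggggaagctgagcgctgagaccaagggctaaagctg
NDUFA1 holds 6 matches (1 ETS, 2 SP1 and 3 ACGTG), NDUFB8 1 SP1 and 1 ACGTG, NDUFA11 1 NRF1 and ACGTG on both strands, and ATP5MC1 only ACGTG on both strands. Over the 64 of 83 tested nuclear members found in the RefSeq table, the NRF1 word occurred in 23.4%, against 12.6% of 9193 tested coding genes and 6.28% of all 27305 regions of this length. The ETS word occurred in 29.7%, 20.5% and 10.7%, the YY1 word in 17.2%, 5.86% and 3.03%, the SP1 word in 62.5%, 71.4% and 44.6%, and ACGTG in 28.1%, 27.4% and 21.6%. Among members called higher in WT than TKO (19 with a sequence), called lower (16) and not called (29), the NRF1 word occurred in 21.1%, 12.5% and 31.0%, and the YY1 word in 26.3%, 12.5% and 13.8%. A match is a word in the sequence, not a measured site.

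Complex II, succinate dehydrogenase, changed little. SDHA, the flavoprotein, was lower in WT at 128 ± 1.17 FPKM than in TKO at 139 ± 2.64 (log2 -0.11, SE 0.033, limma adjusted p = 0.0146), and its iron-sulfur partner SDHB was higher, 99.9 ± 1.32 against 90.7 ± 3.26 (log2 0.14, limma adjusted p = 0.00802). The membrane anchors SDHC and SDHD were not called, with log2 differences of 0.10 and -0.11. In complex III, CYC1 (cytochrome c1) and UQCRC1, a core protein, rose by 0.23 and 0.20, UQCRH rose by 0.19, and UQCR10, a small subunit, fell from 107 ± 5.07 to 86.9 ± 4.56 FPKM (log2 -0.30, limma adjusted p = 0.00101). UQCRC2 and UQCRFS1 differed by -0.07 and -0.03 and were not called. The SDHA call ended without TKO replicate 3 or WT replicate 2 (limma adjusted p = 0.0502 and 0.0524), and that of UQCRC1 without TKO replicate 1, WT replicate 1 or WT replicate 2 (0.133, 0.113 and 0.0725).

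In complex IV 53.8% of the tested genes were called higher, against 30.8% (4 of 13) with the median of neighbouring genes removed. Of all tested genes 25.8% and 23.7% were called higher in these 2 fits. COX5B went from 209, 202 and 201 FPKM in TKO to 260, 267 and 257 in WT (log2 0.36, SE 0.038, limma adjusted p = 1.09e-05), with no overlap. COX7A2L, known for its part in supercomplexes of complexes III and IV, rose by 0.26 (limma adjusted p = 3.20e-05), and COX4I1, COX5A and COX7C rose by 0.18, 0.13 and 0.12. COX8A, the smallest subunit, fell from 524, 554 and 581 FPKM to 455, 449 and 430 (log2 -0.31, limma adjusted p = 1.60e-04). COX7B, on chromosome X, fell from 109 ± 2.56 to 73.0 ± 4.28 (log2 -0.57, limma adjusted p = 1.91e-04).

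In complex V the parts of the enzyme split. Of the catalytic head, ATP5F1B rose by 0.13 and ATP5F1A, the alpha subunit, fell by 0.18 on the log2 scale. ATP5F1D, the delta subunit of the central stalk, went from 114, 106 and 114 FPKM in TKO to 169, 158 and 151 in WT (log2 0.52, SE 0.057, limma adjusted p = 1.37e-05). ATP5MD, a small membrane subunit also known as DAPIT, went from 626, 677 and 676 to 1003, 946 and 989 (log2 0.57, limma adjusted p = 9.45e-07). Of the 3 genes for subunit c, ATP5MC3 and ATP5MC2 rose by 0.27 and 0.14, and ATP5MC1 differed by 0.20 without a call (limma adjusted p = 0.115). ATP5PF of the peripheral stalk fell from 271, 280 and 270 to 205, 207 and 203 (log2 -0.41, limma adjusted p = 4.49e-07), and ATP5MF fell from 979 ± 27.0 to 750 ± 6.50 (log2 -0.38, limma adjusted p = 4.18e-07). The readthrough ATP5MF-PTCD1, at 7.75 FPKM on average, fell by 0.52. ATP5IF1, the inhibitor of ATP hydrolysis by the synthase, fell by 0.11 (limma adjusted p = 0.0116), from 295 ± 9.45 to 273 ± 6.23 FPKM.

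**Figure D3:**
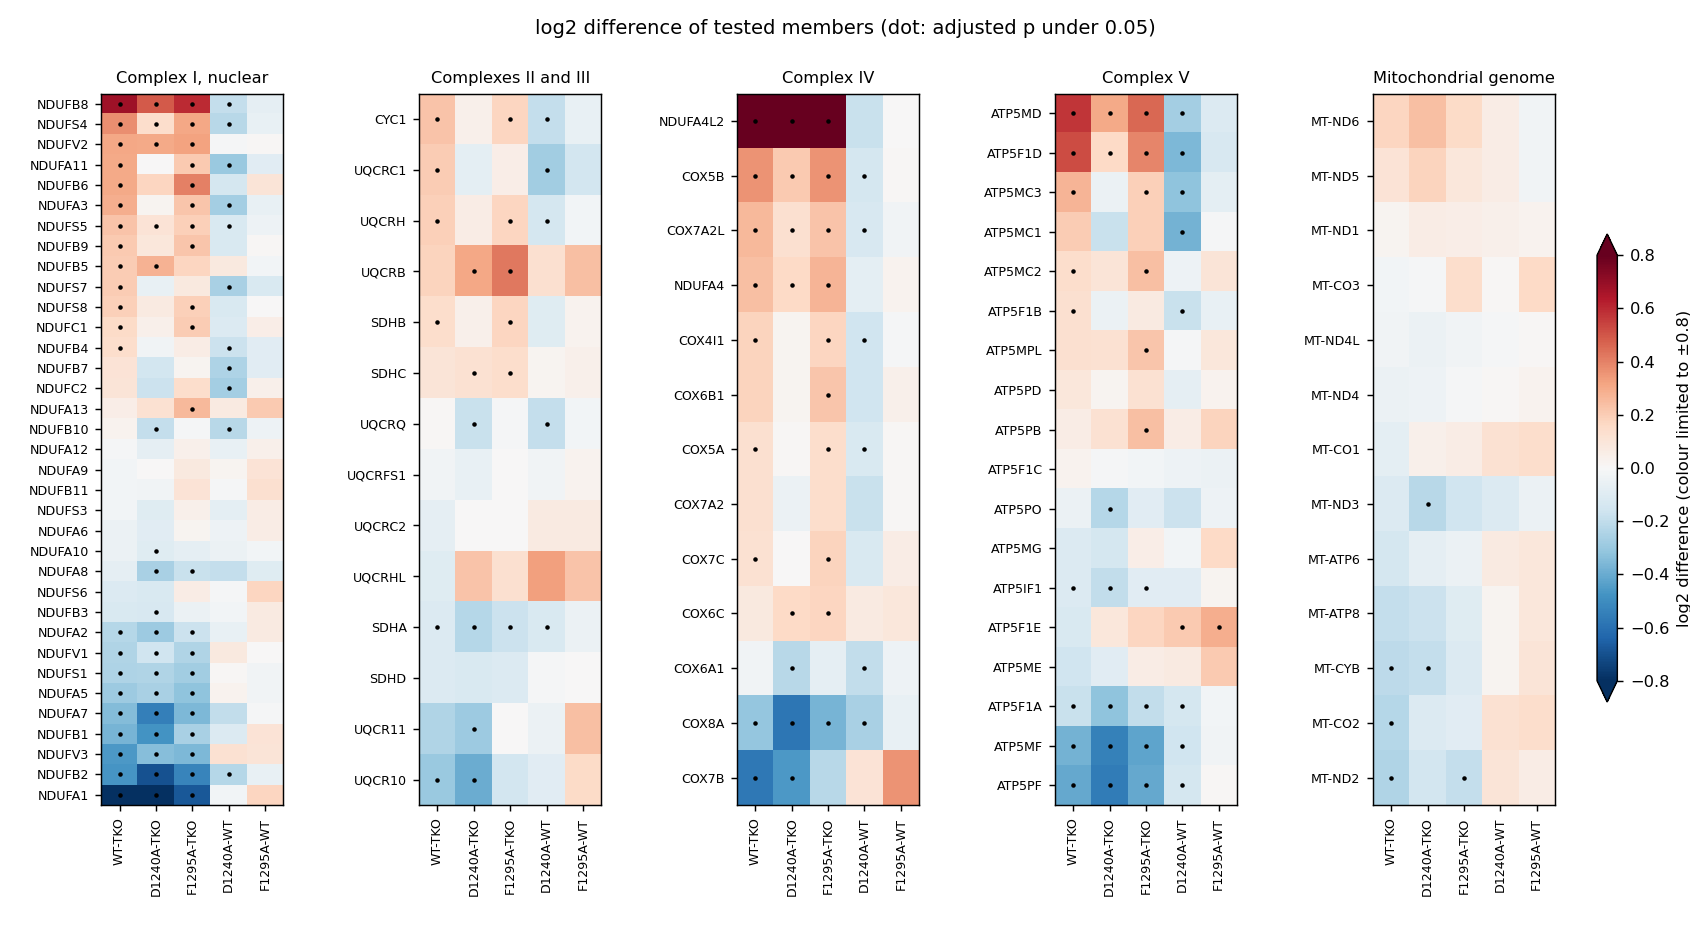
log2 difference of tested members, without the readthrough genes (red higher, blue lower in the group named first; colour limited to ±0.8), by complex and genome, for 5 comparisons; a dot marks a limma adjusted p under 0.05. The 3 comparisons with TKO show calls in both directions, D1240A against WT shows 30 calls below 0 and 1 above, and F1295A against WT shows 1 call, ATP5F1E.

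Of the 13 mitochondrial mRNAs, 3 were called in WT against TKO, all lower (23.1%, against 23.8% of all tested genes called lower), and their median difference was -0.08. MT-ND2, a membrane core subunit of complex I, held 4687, 4773 and 4952 FPKM in TKO and 3884, 3882 and 4420 in WT (log2 -0.24, SE 0.065, limma adjusted p = 0.0082). MT-CO2, which takes electrons from cytochrome c, held 7897, 8039 and 8972 against 6983, 7162 and 7038 (log2 -0.23, limma adjusted p = 0.00603). MT-CYB, the cytochrome b of complex III, held 3237, 3249 and 3465 against 2739, 2798 and 3082 (log2 -0.21, limma adjusted p = 0.0138). In each of the 3, all WT libraries lay below all TKO libraries, and WT replicate 3 was the highest WT library for MT-ND2 and MT-CYB. The MT-CYB call ended without TKO replicate 3, WT replicate 1 or WT replicate 2 (limma adjusted p = 0.055, 0.0596 and 0.0503).

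The other 10 mitochondrial genes were not called in WT against TKO. MT-ATP8, MT-ATP6, MT-ND3, MT-CO1, MT-ND4, MT-ND4L and MT-CO3 differed by -0.19, -0.14, -0.11, -0.08, -0.05, -0.03 and -0.02, and MT-ND1, MT-ND5 and MT-ND6 by 0.02, 0.11 and 0.17. MT-ND6, alone on the other strand, held 1265, 1134 and 1137 FPKM in TKO and 1218, 1230 and 1560 in WT. No source used here gives the strand setting, so reads of MT-ND6 and reads antisense to it cannot be told apart. In D1240A against TKO 2 of 13 were called, MT-ND3 (-0.22, limma adjusted p = 0.0143) and MT-CYB (-0.19, 0.0256), both lower, and in F1295A against TKO only MT-ND2 was (-0.19, limma adjusted p = 0.036). These were 15.4% and 7.69% of the 13, against 44.5% and 45.7% of all tested genes called. MT-ND3 was no longer called without D1240A replicate 1 (limma adjusted p = 0.0503), MT-CYB without TKO replicate 3, D1240A replicate 1 or D1240A replicate 2 (0.0942, 0.094 and 0.066), and MT-ND2 in F1295A without any 1 of the 6 compared libraries (0.052 to 0.108). No mitochondrial gene was called in limma among the 3 vector lines, where 0, 3 and 1 had an unadjusted p under 0.05 (D1240A against WT, F1295A against WT and D1240A against F1295A). Of all tested genes 19.1%, 2.71% and 6.09% were called in these 3 comparisons. Another 1916, 1943 and 2370 of the 14411 tested were uncalled with an unadjusted p under 0.05.

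The mitochondrial genes varied more between replicates than the nuclear ones in WT and D1240A. The median SD of log2 values over the 3 replicates was 0.109 in WT and 0.121 in D1240A for the 13 mitochondrial genes, against 0.043 in TKO and 0.050 in F1295A. For the 83 nuclear genes it was 0.047, 0.048, 0.086 and 0.055 in TKO, WT, D1240A and F1295A. The WT libraries had mitochondrial sums of 78704, 78899 and 89515 FPKM and the D1240A libraries 78647, 82287 and 91522, so 1 library of each lay apart from the others. It was 88849 ± 1688 in TKO and 86594 ± 2946 in F1295A (SD, n = 3). Without WT replicate 3, 5 mitochondrial genes were called lower in WT than TKO, with a median of -0.15, and without WT replicate 1, 2 were, with a median of -0.04. Without D1240A replicate 3, which enters only through the shared spread, 5 were called. Of all tested genes 21.6%, 21.2% and 24% were called lower in these 3 fits. The ratio of the mitochondrial to the nuclear sum was 4.32 ± 0.0804 in TKO, 3.84 ± 0.353 in WT, 4.26 ± 0.409 in D1240A and 3.998 ± 0.192 in F1295A. These ranges overlapped between all pairs of groups but F1295A and TKO, where F1295A lay lower. The nuclear sum was 20562 ± 494, 21472 ± 344, 19778 ± 1002 and 21671 ± 600 FPKM in the same order.

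**Figure D4:**
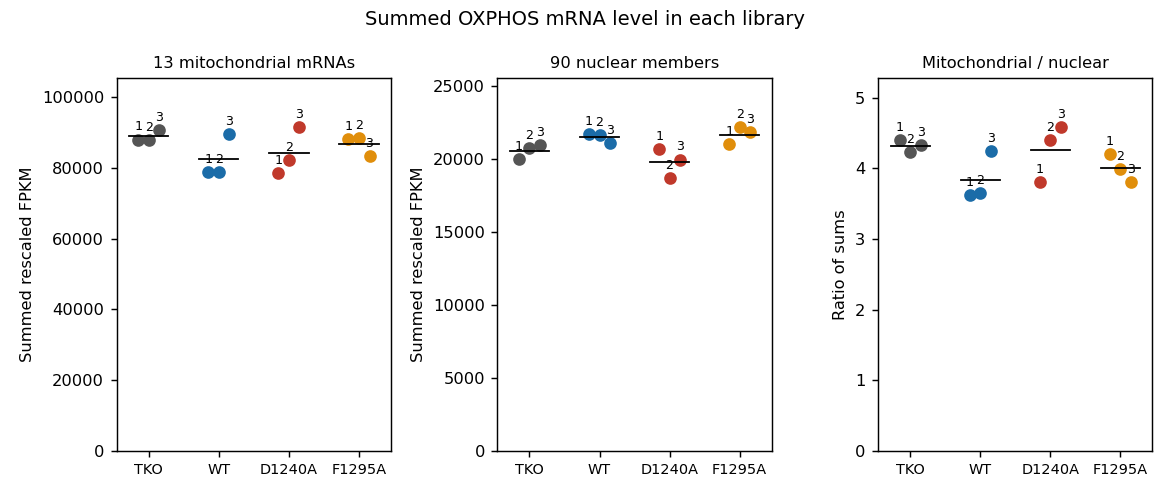
Summed rescaled FPKM of the 13 mitochondrial mRNAs, of the 90 nuclear members, and their ratio, in each library (points with the replicate number; lines are group means). Mitochondrial sums of WT and D1240A spread from 78647 to 91522, and D1240A replicate 2 has the lowest nuclear sum, 18699.

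In D1240A against TKO, 14 of the 96 members were called higher and 28 lower (43.8%), against 44.5% of all tested genes (23.3% higher and 21.1% lower), and the groups did not overlap for 45 (52.5% of all tested genes). Without D1240A replicate 2 the counts were 19 and 24, with 22.0% of all tested genes higher and 20.1% lower. In F1295A against TKO, 31 were called higher and 18 lower (51.0%), against 45.7% (23.9% and 21.8%), and 63 did not overlap (55.7% of all tested genes). Because the 3 comparisons share the TKO libraries, values are set side by side without a test of their likeness. NDUFB8 differed from TKO by 0.68, 0.49 and 0.60 in WT, D1240A and F1295A, COX5B by 0.36, 0.21 and 0.36, ATP5F1D by 0.52, 0.16 and 0.39, and NDUFS4 by 0.37, 0.14 and 0.31. Among genes below TKO, NDUFB2 differed by -0.47, -0.70 and -0.53, COX8A by -0.31, -0.58 and -0.37, and ATP5PF by -0.41, -0.56 and -0.41. The D1240A differences without its replicate 2 were 0.52 for NDUFB8, 0.23 for COX5B, 0.17 for ATP5F1D, 0.18 for NDUFS4, -0.66 for NDUFB2, -0.54 for COX8A and -0.53 for ATP5PF, all still called but that of ATP5F1D (limma adjusted p = 0.0516). In each of these 7 genes D1240A had the lowest of the 3 vector means, as it did for 65 of the 83 nuclear genes (55 without D1240A replicate 2) and 37.4% of all tested genes (38.1%). The call of ATP5F1D in D1240A ended without any 1 of the 6 compared libraries, and without WT replicate 2 or F1295A replicate 2 (limma adjusted p = 0.0501 to 0.157). Genes called in the same direction in all 3 lines were 10 higher, the 4 above with ATP5MD, COX7A2L, NDUFA4, NDUFA4L2, NDUFS5 and NDUFV2, and 16 lower, while 30 were called in none. Of all tested genes 17.6% were called higher and 15% lower in all 3 lines. The NDUFA4 call in D1240A ended without replicate 1 or 3 of TKO or of D1240A (limma adjusted p = 0.079 to 0.113).

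Some members met the threshold in 1 or both mutant lines but not in WT. UQCRB, a complex III subunit that binds ubiquinone, held 407, 411 and 416 FPKM in TKO, 451, 511 and 438 in WT, and 532, 451 and 547 in D1240A. F1295A held 539, 576 and 538. All vector libraries exceeded TKO, with log2 differences of 0.18 (limma adjusted p = 0.0553), 0.31 (0.00453) and 0.42 (4.77e-04). SDHC was called higher in D1240A (0.12) and F1295A (0.14), and UQCR11 lower in D1240A (-0.29, limma adjusted p = 0.0326). NDUFB6, in contrast, also rose in WT: it differed by 0.30, 0.17 and 0.40 in WT, D1240A and F1295A, and was not called in D1240A. The SDHC call ended in D1240A without TKO replicate 1 or 2 or D1240A replicate 1 or 3 (limma adjusted p = 0.0783 to 0.119) and in F1295A without TKO replicate 1 or F1295A replicate 1 (0.0502 and 0.052). That of UQCR11 ended without TKO replicate 1 or 2 or D1240A replicate 1 or 2 (0.0572 to 0.124).

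Changes of nuclear members from TKO were correlated with those of their chromosome neighbourhood, though many differed from it in sign. Each member's log2 difference was set beside the median of the 50 nearest tested genes on its chromosome. Across the 83 nuclear genes, which share libraries and are not independent replicates, Pearson's r was 0.56 (Spearman's rho 0.50) in WT against TKO, 0.50 (0.47) in D1240A against TKO and 0.53 (0.52) in F1295A against TKO. Member and neighbourhood had the same sign in 49, 49 and 55 of the 83, with neighbourhood medians from -0.46 to 0.42, -0.48 to 0.42 and -0.47 to 0.43. Pearson's r was 0.09, -0.00 and 0.14 in D1240A against WT, F1295A against WT and D1240A against F1295A. There the neighbourhood medians spanned only -0.06 to 0.08, -0.04 to 0.06 and -0.08 to 0.05, so little correlation could show. All tested genes of chromosome X had a median of -0.43 in WT against TKO and 76.5% of them were called. The medians of chromosomes 21, 7 and 10 were -0.35, -0.11 and 0.17.

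**Figure D5:**
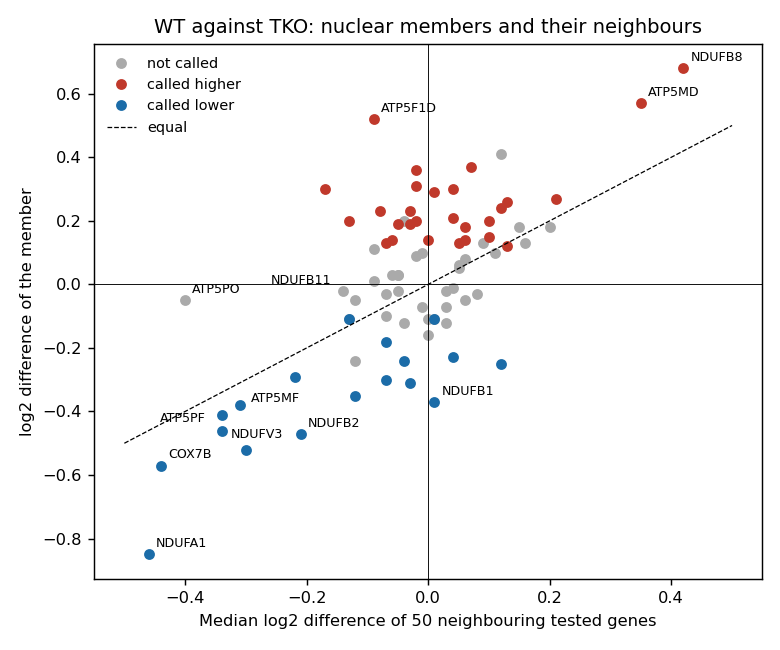
log2 difference of each tested nuclear member except NDUFA4L2 in WT against TKO (vertical axis) against the median log2 difference of 50 neighbouring tested genes (horizontal axis); colours give the call and the dashed line marks equal values. NDUFA1 at -0.85 has neighbours at -0.46 and NDUFB8 at 0.68 has neighbours at 0.42, while ATP5F1D at 0.52 has neighbours at -0.09.

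With each region's median subtracted in every library before the test, 40 of 83 nuclear members were called in WT against TKO in place of 47, and 34 kept their call and direction. The 40 were 26 higher and 14 lower. Of all 96 tested members, the mitochondrial ones left as they were, 27.1% were then called higher and 17.7% lower. Of all tested genes 23.7% were called higher and 22.4% lower. NDUFA1, with neighbours at -0.46, kept a difference of -0.39 (limma adjusted p = 0.00188), and NDUFB8, with neighbours at 0.42, one of 0.26 (1.97e-04). COX7B on chromosome X was no longer called, at -0.13 (limma adjusted p = 0.288), and ATP5PF on chromosome 21 neither, at -0.07 (0.16). SDHA turned from -0.11 to 0.02 (limma adjusted p = 0.632). ATP5PO, a peripheral stalk subunit on chromosome 21, was not called before, at -0.05 with neighbours at -0.40, and was called higher relative to them, at 0.35 (limma adjusted p = 5.28e-04). ATP5F1D, COX5B, NDUFV2 and NDUFA11 had neighbours between -0.17 and -0.02 and kept 0.61, 0.37, 0.33 and 0.47. In D1240A against TKO 24 of 40 kept their call and direction and 15 lost the call, and in F1295A against TKO 34 of 48 kept and 14 lost it. ATP5PO, called lower in D1240A against TKO, was called higher relative to its neighbours (0.19, limma adjusted p = 0.0265). Of all tested genes 20.4% were called higher and 19.4% lower in D1240A against TKO, and 21.6% and 20.2% in F1295A against TKO. Whether the neighbourhoods set the members' differences was not tested.

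In D1240A against WT, more nuclear OXPHOS genes were lower than higher. Of the 96 members, 30 were called lower and 1 higher in D1240A (32.3%), against 19.1% of all tested genes called, 10.9% lower and 8.20% higher. The groups did not overlap for 43 members, against 35.5% of all tested genes. The median of the 83 nuclear genes was -0.11 and 66 lay below 0, while the median over all tested genes was 0.01. Calls fell in every complex: 11 lower of 37 in complex I, 1 of 4 in complex II, 4 of 10 in complex III, 6 of 13 in complex IV and 8 of 19 in complex V, with 1 higher. The 13 mitochondrial genes had a median of 0.04 and none was called. Without D1240A replicate 2, 19 members were called lower and 3 higher, with 8.89% of all tested genes lower and 6.73% higher, and the nuclear median was -0.07 with 56 of 83 below 0. Of the 22 calls, 20 were among the 31. Without WT replicate 1 the calls were 16 lower and 1 higher (6.98% and 5.06% of all tested genes), and without D1240A replicate 3, 20 lower (8.38%, with 5.76% higher). TKO and F1295A libraries enter this comparison through the shared spread, and with only the D1240A and WT libraries 19 members were called, all lower, against 7.31% of all tested genes lower and 5.02% higher. Of the 9 tested plasma cell markers, 6 were called lower and 1 higher in D1240A than WT, with differences from -0.54 to 0.94 (JCHAIN -0.27, XBP1 -0.29). Without D1240A replicate 2 the marker SLAMF7 was higher by 0.97 (limma adjusted p = 0.00516). With all libraries EPCAM was lower (-0.59) and COL1A1 higher (1.00). The part of these markers in the members' differences was not tested.

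In ATP synthase, with 8 of 19 tested genes called lower, ATP5MC1 held 375, 357 and 365 FPKM in WT and 309, 231 and 312 in D1240A (log2 -0.38, SE 0.097, limma adjusted p = 0.0193). The groups did not overlap, D1240A replicate 2 was the lowest, and without it the difference was -0.24 (limma adjusted p = 0.0176), while without WT replicate 1 it was -0.36 (0.0661). ATP5F1D held 169, 158 and 151 in WT and 130, 121 and 121 in D1240A (log2 -0.36, limma adjusted p = 0.00127), and -0.34 without replicate 2. ATP5MC3 held 524, 523 and 508 against 452, 374 and 426 (log2 -0.32, limma adjusted p = 0.0032), ATP5MD 979 ± 29.6 against 811 ± 47.9 (log2 -0.27), and ATP5F1B 1430 ± 30.5 against 1259 ± 48.7 (log2 -0.18). These 3 differed by -0.24, -0.23 and -0.16 without D1240A replicate 2 and were still called. ATP5F1E, the epsilon subunit of the central stalk, was the 1 gene called higher, at 58.1, 55.2 and 59.9 against 48.1, 55.2 and 46.9 (log2 0.21, limma adjusted p = 0.0476), and its groups overlapped. Of the 12 libraries, leaving out any 1 of 9 ended this call (limma adjusted p = 0.0509 to 0.159), the exceptions being WT replicate 2, D1240A replicate 2 and F1295A replicate 1.

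Of complex I, NDUFA11 held 396, 359 and 378 FPKM in WT and 330, 295 and 293 in D1240A (log2 -0.30, SE 0.056, limma adjusted p = 0.00321), and NDUFA3 237 ± 13.2 and 197 ± 11.8 (log2 -0.27, limma adjusted p = 0.0162). NDUFB10, NDUFS4 and NDUFB8 differed by -0.22, -0.22 and -0.19. The core gene NDUFS7 was called lower at -0.26 (limma adjusted p = 0.00864). With D1240A replicate 2 left out, NDUFA11 and NDUFS7 differed by -0.28 each, NDUFB10 and NDUFS4 by -0.19 and NDUFB8 by -0.16, and all 5 were still called. NDUFB8 and NDUFS4 in D1240A thus lay between TKO and WT, and NDUFA11 at 330.3, 295 and 293 FPKM stood beside TKO at 295, 308 and 316.

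Among the remaining complexes, UQCRC1 held 98.9, 94.7 and 89.99 FPKM in WT and 84.4, 68.4 and 80.7 in D1240A (log2 -0.28, limma adjusted p = 0.0173), and CYC1 differed by -0.19 (limma adjusted p = 0.024). COX8A held 455, 449 and 430 against 394, 353 and 365 (log2 -0.26, limma adjusted p = 0.00269), COX6A1 differed by -0.20 and SDHA by -0.12 (limma adjusted p = 0.0268). Without D1240A replicate 2, NDUFA3, CYC1 and SDHA were no longer called (-0.23, -0.15 and -0.09, limma adjusted p = 0.0558, 0.0794 and 0.0862), and UQCRC1, COX8A and COX6A1 were. Calls also ended without WT replicate 1 for UQCRC1, CYC1, SDHA and NDUFA3 (0.07, 0.0953, 0.0824 and 0.0506), without WT replicate 2 for CYC1, SDHA and NDUFA3 (0.0572, 0.0531 and 0.0622), without WT replicate 3 for SDHA (0.0679), and without D1240A replicate 3 for CYC1 and SDHA (0.0828 and 0.0907). With regional medians removed, 31 nuclear members were called, 2 higher and 29 lower, 28 of them among the 31. Of all tested genes 7.57% were then called higher and 10.5% lower.

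F1295A and WT were close. ATP5F1E alone was called, higher in F1295A at 56.2, 63.3 and 64.1 FPKM than in WT at 48.1, 55.2 and 46.9 (log2 0.29, SE 0.065, limma adjusted p = 0.041), that is 1.04% of the members against 2.71% of all tested genes (0.895% higher and 1.81% lower). Groups did not overlap for 23 members, against 22.9% of all tested genes. Of 95 uncalled members 19 had an unadjusted p under 0.05 in limma, as did 1943 of the 14021 uncalled among all tested genes. The F1295A libraries lay above those of WT. The call ended on removal of any of 8 libraries (all 3 of TKO, WT replicates 1 and 3, D1240A replicate 1, F1295A replicates 2 and 3), with a limma adjusted p of 0.0529 to 0.156. Without D1240A replicate 2 or F1295A replicate 1 there were 3 calls, all higher, against 1.34% and 0.69% of all tested genes called higher. The median over nuclear genes was 0.01, and the median size regardless of sign was 0.06, against 0.08 over all tested genes. COX7B, at 0.36, and UQCRB, at 0.24, differed without a call (limma adjusted p = 0.0565 and 0.109).

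In D1240A against F1295A, 16 members were called, all lower in D1240A (16.7%), against 6.09% of all tested genes, 3.00% higher and 3.09% lower. The groups did not overlap for 32 members, against 24.0% of all tested genes. The nuclear median was -0.13 and 75 of 83 genes lay below 0. NDUFC2, of the complex I membrane arm, held 308, 256 and 287 FPKM in D1240A and 317, 367 and 370 in F1295A (log2 -0.31, limma adjusted p = 0.0323). ATP5MC1 differed by -0.37 (0.0466 in limma), ATP5MC3 by -0.24, UQCR10 by -0.25, COX8A by -0.20, and NDUFB10 and COX7C by -0.19. Without D1240A replicate 2, NDUFC2 differed by -0.24, ATP5MC1 by -0.23, ATP5MC3 by -0.17, UQCR10 by -0.21, COX8A by -0.17 and COX7C by -0.15, and none of these 6 was called (limma adjusted p = 0.0587 to 0.106), while NDUFB10 was (-0.15, 0.0392). Calls ended on leaving out any 1 of 10 libraries for ATP5MC1, of 9 for ATP5MC3, of 4 for NDUFC2, UQCR10 and COX8A each, of 3 for COX7C and of 1 (F1295A replicate 3) for NDUFB10. This count depended on single libraries: it was 1 without D1240A replicate 2, 5 without D1240A replicate 3, 36 without D1240A replicate 1, 1 without F1295A replicate 2, 0 without F1295A replicate 3, and 10 without TKO replicate 2, WT replicate 1 or WT replicate 2. Of all tested genes 1.16% were called lower and 1.46% higher without D1240A replicate 2, the nuclear median was -0.09 and 71 of 83 lay below 0. The share of all tested genes called lower was 4.81% without D1240A replicate 1 and 1.38% without D1240A replicate 3. It was 0.956% without F1295A replicate 2 and 0.984% without F1295A replicate 3. Without TKO replicate 2, WT replicate 1 or WT replicate 2 it was 2.25%, 2.42% and 2.12%.

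Genes that build or serve the complexes were read from lists chosen with earlier results of these data known. Among list genes, values of neighbouring genes are given only for HCCS and PPRC1. How far the other differences follow their regions is not shown. Of 56 tested assembly factors, 9 were called higher and 11 lower in WT than TKO, and 1 higher and 8 lower in D1240A than WT (35.7% and 16.1% called, against 49.7% and 19.1% of all tested genes). None was called in F1295A against WT in limma. There 7 of the 56 had an unadjusted p under 0.05, as did 1943 uncalled genes of all 14411 tested. ECSIT and ATPAF2, assembly factors of complexes I and V, rose by 0.55 and 0.69 in WT, COX20, a chaperone of MT-CO2, by 0.53 and COX15, of heme a synthesis, by 0.34. NDUFAF3 and NDUFAF6 of complex I fell by 0.54 and 0.37, SDHAF2 of complex II by 0.21 and ATPAF1 by 0.18. SMIM4, a complex III assembly factor also named UQCC5, went from 24.5 ± 2.90 to 9.99 ± 2.20 FPKM (log2 -1.27, limma adjusted p = 1.53e-04). LRPPRC, which stabilizes mitochondrial mRNAs, rose by 0.14.

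Of 17 genes for electron carriers and protein insertion, 4 rose and 6 fell in WT against TKO (58.8% called, against 49.7% of all tested genes), and 3 were lower in D1240A than WT (17.6%, against 10.9%). CYCS, cytochrome c itself, averaged 350 ± 11.1 FPKM in TKO, 444 ± 14.7 in WT, 380 ± 24.6 in D1240A and 427 ± 13.8 in F1295A, and was lower in D1240A than WT by 0.23 on the log2 scale (limma adjusted p = 0.00631). HCCS, which attaches heme to cytochrome c, fell by 0.94 in WT against TKO, with its neighbours on chromosome X at -0.87, and COQ10A, a coenzyme Q binding protein, fell by 1.06. Of 27 genes for mitochondrial DNA and RNA, 5 rose and 6 fell in WT against TKO (40.7%, against 49.7% of all tested genes). SLIRP, the partner of LRPPRC, averaged 193 ± 5.05, 290 ± 4.41, 228 ± 18.2 and 276 ± 15.1 FPKM in TKO, WT, D1240A and F1295A (D1240A against WT -0.35, limma adjusted p = 0.00109). With D1240A replicate 2 left out, CYCS and SLIRP differed from WT by -0.17 and -0.30 and were still called. TWNK, the mitochondrial helicase, and GRSF1, an RNA-binding protein, rose by 0.28 and 0.16, and TFAM, which packages mitochondrial DNA, differed by 0.03 without a call.

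Of 10 nuclear regulators, 4 were called higher and 2 lower in WT than TKO (40% and 20%, against 25.8% and 23.8% of all tested genes). PPARGC1A, a coactivator of respiratory genes, averaged 0.972 ± 0.143 FPKM in TKO, 3.67 ± 0.219 in WT, 2.45 ± 0.176 in D1240A and 2.92 ± 0.311 in F1295A (WT against TKO 1.51, limma adjusted p = 2.13e-07, and D1240A against WT -0.50, 0.00559). MYC averaged 155 ± 1.08, 240 ± 9.29, 172 ± 7.25 and 206 ± 3.15 in the same order, and was lower than WT in D1240A (-0.48, limma adjusted p = 6.43e-06) and in F1295A (-0.22, 0.00852). In D1240A against WT 1 of the 10 was called higher and 3 lower (10% and 30%, against 8.2% and 10.9% of all tested genes). Of the 10 differences there 7 lay above 0, with a median of 0.06. PPRC1 rose by 0.46 in WT against TKO, with neighbours on chromosome 10 at 0.38. The part of these regulators in the members' differences was not tested.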

How the data were processed

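The authors deposited 1 table of FPKM, 1 value per gene and library, for 12 libraries in 4 groups of 3. Per the submitters' processing notes, reads were handled with Trimmomatic 0.36, FastQC 0.11.4, STAR 2.7.9a, RSEM 1.3.1 and DESeq2 on GRCh38; no source used here gives the annotation release or strand setting. FPKM keep no depth, so precision rests on the replicates. All that follows was computed from these values. Structural RNAs (7089 features) were left out, each library was scaled to the mean library by the mean log2 ratio left after trimming 30% at each end (genes averaging 1 FPKM or more), and 14411 genes were tested on log2(FPKM + 0.5) in limma 3.58.1 (R 4.3.3), all 12 libraries in 1 fit on group alone, with a variance trend and Benjamini-Hochberg adjustment over all tested genes. Rescaling fixes each library's centre, so a change shared by all genes cannot be seen. Positions came from a GENCODE annotation of GRCh38 (56996 of 60504 features matched). NDUFA4 and NDUFA4L2 were counted with complex IV. The values of 1 member, included in all counts, are not reported here. Members and lists were chosen with earlier results of these data known. Named genes were all mitochondrial members, alternative forms, in each comparison and complex the 2 called nuclear genes with the largest change each way and a mean of at least 2 FPKM, and 3 genes per related list; others named were chosen after their values were seen. Alternatives were other scalings, filters and pseudocounts, library weights, a replicate block, regional medians removed, only the compared groups and each library left out.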

Additional observations from a re-analysis of the deposited data

How the results depend on the processing

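Counts of called members are given here in the order WT, D1240A and F1295A against TKO, then D1240A and F1295A against WT and D1240A against F1295A. With 1 library left out in turn they ranged from 46 to 61, 35 to 44, 44 to 53, 17 to 35, 0 to 3 and 0 to 36. Over all tested genes (14255 to 14344 in these fits) the counts ranged from 6357 to 7427, 5501 to 6393, 5703 to 6850, 1723 to 2834, 149 to 514 and 310 to 1226. On values as deposited, without rescaling, WT against TKO had 22 calls, 7 higher and 15 lower (7.29% and 15.6%, against 18.1% and 18.6% of all tested genes). F1295A against TKO had 18, 7 and 11 (7.29% and 11.5%, against 14.8% and 18.5%). D1240A against TKO had 2 higher and 30 lower (2.08% and 31.2%, against 11% and 26.3%), and all tested genes had a median of -0.12. D1240A against WT had 11, all lower (11.5%, against 9.4%), and all tested genes had a median of -0.10. F1295A against WT and D1240A against F1295A had 0 each. With no filter on low values the last 3 counts were 20, 0 and 3 (2249, 302 and 440 of all 29605 tested genes). With only the compared groups in the fit they were 19, 0 and 0 (1776, 256 and 91 of 14411). Library weights gave 3 for F1295A against WT (613 of all tested genes). Replicate numbers did not pair the libraries (correlations of same-numbered libraries from -0.065 to 0.142). With a replicate block F1295A against WT had 0 calls and D1240A against F1295A 5 (272 and 525 of all tested genes). The other counts were 49, 39, 49 and 28 (6983, 6186, 6353 and 2356). Of 84 results for single genes, 32 kept direction and call under every alternative, and over all 1926 recomputed values 1691 kept both, 231 lost the call and 4 changed sign: SDHA in WT against TKO (0.02) and ATP5MD in D1240A against TKO (-0.07) with regional medians removed, and SDHC (-0.03) and COX7A2L (-0.02) in D1240A against TKO on values as deposited. The cause of these differences was not tested. Limits are the unknown depth, 3 libraries per group, 1 D1240A library rich in ribosomal RNA, and no empty-vector line.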
